A study of Mus musculus with 24 samples.

Results

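The genes described here are 30 genes of sterol and fatty acid synthesis in E14 mouse embryonic stem cells (mESCs), an established line labelled 129m wt, cultured on soft or stiff StemBond hydrogels. StemBond gels are polyacrylamide-based substrates coated here with fibronectin. The members were chosen by name, as the rows of both count tables whose symbol is on the list, and all 30 were found among the 35022 genes of the table for PD03 removal and the 48709 genes of the table for CHIRON removal. All cells spent 12 h on the gels in 2i+LIF, the medium that holds mESCs in the naive state with PD03 at 1 µM (an inhibitor of MEK, the kinase above ERK), CHIRON at 3 µM (an inhibitor of GSK3, which raises Wnt/β-catenin signalling) and the cytokine LIF. In the first experiment PD03 was then removed, and in the second CHIRON was removed, so the cells went on in CHIRON+LIF or in PD+LIF. On each gel, RNA of cells still in 2i+LIF served as the 0 h control and further RNA was taken 2 h and 12 h after removal, with 2 libraries per group and 6 groups per experiment. The library Stiff 2 h replicate 1 of CHIRON removal held only 171333 counts and was left out. Thus 12 and 11 libraries were used, and Stiff 2 h after CHIRON removal is a single library, assumed in the fits to vary like the other groups. The study's description speaks of experiments in triplicate, but the labels do not tie the 2 libraries of a group to separate cultures, so the p-values measure the spread between these libraries, which may be technical.

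Cholesterol is built from acetyl-CoA through mevalonate, isoprenoid diphosphates, squalene and lanosterol, and the same acetyl-CoA feeds fatty acid synthesis, elongation and desaturation. The transcription factors SREBP-2 (encoded by Srebf2) and SREBP-1 (Srebf1) switch on these enzymes when sterols are scarce. The protein of Insig1 holds SREBP precursors in the endoplasmic reticulum when sterols are plentiful, and Insig1 is itself an SREBP target. The 30 members are 7 genes of the steps to farnesyl diphosphate (Acat2, Hmgcs1, Mvk, Pmvk, Mvd, Idi1, Fdps), 11 genes from squalene to cholesterol (Fdft1, Sqle, Lss, Cyp51, Tm7sf2, Msmo1, Nsdhl, Hsd17b7, Ebp, Sc5d, Dhcr7), 4 regulators or carriers (Srebf1, Srebf2, Insig1 and the sterol transfer gene Stard4) and 8 genes of fatty acid synthesis (Acly, Acaca, Fasn, Elovl6, Scd1, Scd2, Fads1, Fads2).

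The promoters of most members held a short motif that their selection did not use. RefSeq promoter windows (GRCm38.p6, 250 bases before to 50 bases after the start) were found for 23 of the 30 members. The NF-Y box CCAAT, searched on both strands, was present for 19 of these 23 members (82.6%), against 41.1% of 27025 genes in the same table. The E-box CACGTG was present for 4 members (17.4%), namely Hsd17b7, Sc5d, Dhcr7 and Insig1, against 8.09% of genes. The sterol regulatory element form TCACNCCAC was present for Hmgcs1 alone (4.35%), against 1.44% of genes. The genes set against the members here were not limited to protein-coding or expressed genes, unlike the tested genes used below. The shares are thus not matched to the members, which are all expressed protein-coding genes. These are matches of letters, not measured binding sites. The 250 bases upstream of the start are shown for 5 members, 5′ to 3′ on the gene's strand with motif matches in capitals: Hmgcs1 and Insig1 for the less common motifs, Mvk for its run of NF-Y boxes, and Lss and Srebf2 because both were called in the results that follow.
Hmgcs1, chr13:119690101-119690350, + strand: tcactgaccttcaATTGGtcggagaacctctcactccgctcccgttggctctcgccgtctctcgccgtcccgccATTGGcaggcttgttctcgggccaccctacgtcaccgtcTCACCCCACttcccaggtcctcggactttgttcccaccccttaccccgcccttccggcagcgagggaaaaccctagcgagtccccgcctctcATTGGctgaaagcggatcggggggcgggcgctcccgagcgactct
Mvk, chr5:114444019-114444268, + strand: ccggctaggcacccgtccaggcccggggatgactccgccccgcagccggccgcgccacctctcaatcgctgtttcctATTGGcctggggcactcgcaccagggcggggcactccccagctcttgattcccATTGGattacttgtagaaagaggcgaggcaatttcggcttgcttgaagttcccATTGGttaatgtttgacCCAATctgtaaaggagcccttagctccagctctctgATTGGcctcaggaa
Lss, chr10:76531355-76531604, + strand: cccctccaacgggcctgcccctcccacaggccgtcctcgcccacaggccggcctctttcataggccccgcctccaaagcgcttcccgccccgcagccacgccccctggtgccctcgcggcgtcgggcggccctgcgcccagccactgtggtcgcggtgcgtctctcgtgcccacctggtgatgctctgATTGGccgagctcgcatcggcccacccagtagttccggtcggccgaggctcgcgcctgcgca
Srebf2, chr15:82147019-82147268, + strand: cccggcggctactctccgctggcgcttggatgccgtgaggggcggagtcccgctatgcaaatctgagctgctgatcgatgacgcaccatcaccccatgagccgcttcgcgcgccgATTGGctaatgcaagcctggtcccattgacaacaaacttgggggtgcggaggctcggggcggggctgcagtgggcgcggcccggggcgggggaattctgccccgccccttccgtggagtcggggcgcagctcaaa
Insig1, chr5:28071162-28071411, + strand: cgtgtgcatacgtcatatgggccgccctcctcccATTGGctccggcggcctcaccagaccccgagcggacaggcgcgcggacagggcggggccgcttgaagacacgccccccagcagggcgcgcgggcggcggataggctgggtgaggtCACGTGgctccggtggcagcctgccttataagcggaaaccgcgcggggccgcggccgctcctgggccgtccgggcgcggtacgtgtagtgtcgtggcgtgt
In Hmgcs1 the element TCACCCCAC begins 137 bases before the gene's start, between NF-Y boxes on the other strand that begin 176 and 45 bases before it. Mvk holds 5 NF-Y boxes, beginning 173, 120, 67, 50 and 14 bases before the start. In Insig1 the E-box begins 101 bases and an NF-Y box 216 bases before the start, and the single NF-Y boxes of Lss and Srebf2 begin 62 and 135 bases before it.

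In 2i+LIF the members differed widely in level. Levels are TMM-normalised CPM (a gene's counts scaled to a common library size), divided by exon length in kilobases only where genes are set against each other. At 0 h of the PD03 experiment Scd2, a stearoyl-CoA desaturase, had the highest median over the 4 libraries of both gels, at 228.3 CPM per kb (213.7 to 242.0). Acly, which makes cytosolic acetyl-CoA from citrate, followed at 204.2 CPM per kb (202.4 to 214.8), and the ranges of these genes overlapped. Hmgcs1, HMG-CoA synthase, was the highest of the sterol pathway at 92.3 CPM per kb. The lowest members were the sterol reductases Dhcr7 at 4.21 and Tm7sf2 at 3.6 CPM per kb. In the CHIRON experiment Scd2 (258.1 CPM per kb) and Acly (138.3 CPM per kb) were again the highest, without overlap, and Tm7sf2 (2.58 CPM per kb) the lowest. Counts per library ran from 177 for Tm7sf2 to 26944 for Scd2 in the PD03 experiment and from 178 to 38011 for the same genes in the CHIRON experiment.

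The experiments did not start from the same levels, although both 0 h media were 2i+LIF. With all 23 libraries normalised together, Dhcr7, the reductase of a last step to cholesterol, lay between 21.9 and 25.4 CPM at 0 h in the PD03 experiment and between 269.9 and 335.9 CPM in the CHIRON experiment, 12.7-fold apart. As far apart as Dhcr7 were 0.82% of 14759 genes. Srebf2 lay between 152.9 and 181.7 CPM in the PD03 experiment and between 672.3 and 718.4 CPM in the CHIRON experiment (4.04-fold, with 5.22% of genes as far apart). Fads2, 2.83-fold higher in the CHIRON experiment, and Ebp, 2.55-fold higher in the PD03 experiment, were the other members over 2-fold, so 4 of 30 members passed that size, against 26.7% of all genes. For 26 of 30 members the libraries of one experiment at 0 h lay wholly above those of the other, as they did for 72.7% of all genes. The experiments come from separate tables, so differences of culture, library and counting between them cannot be told apart, and levels are compared below only within an experiment.

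**Figure D1:**
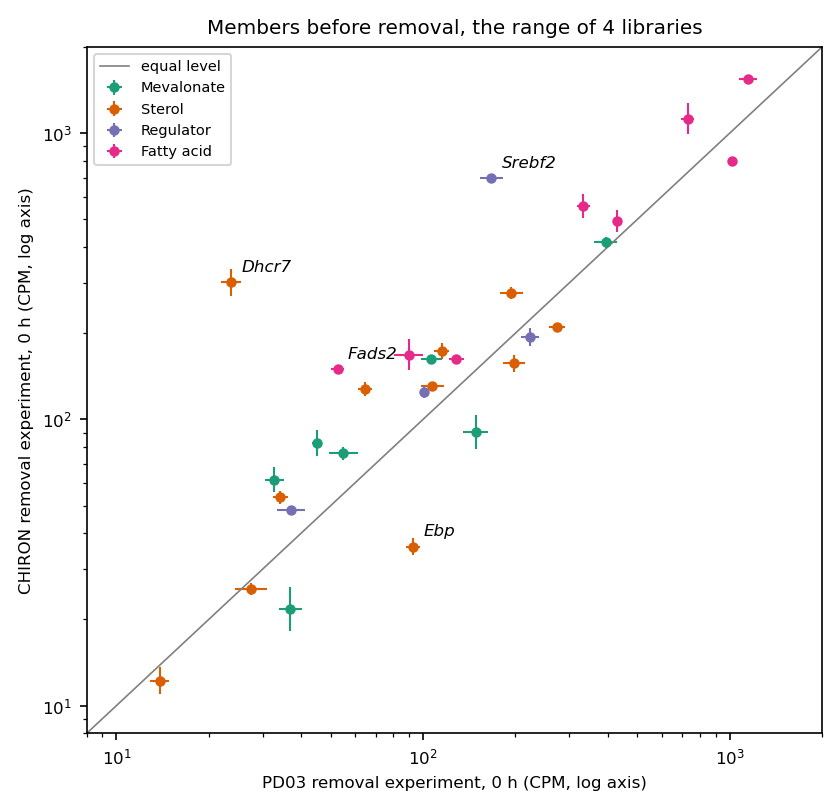
Level of each member at 0 h in the PD03 removal experiment (x axis) and the CHIRON removal experiment (y axis), in CPM on log axes, with all 23 libraries normalised together. Bars span the lowest and highest of the 4 libraries, points mark the geometric midpoint of these and colours give the role; Dhcr7 and Srebf2 stand farthest from the line of equal level, 12.7-fold and 4.04-fold higher in the CHIRON experiment.

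After 12 h without PD03 the members did not move as a block. Srebf2 and Scd2 rose on both gels, Insig1, Acly and Ebp fell on both gels, and the other calls were each on a single gel. The log2 fold change had the same sign on both gels for 23 of 30 members, among them every member called on a single gel. On soft gels 3 of 30 members rose, where 14.1% of 13405 tested genes rose, and 8 fell, where 15.3% fell. On stiff gels 8 members rose, against 18.5% of all tested genes, and 5 fell, against 19.9%. The median log2 fold change of the members was -0.034 on soft and 0.001 on stiff gels, beside -0.0014 and -0.0015 for all genes. DESeq2 called 7 members on soft and 11 on stiff gels, and the fit of genes of every biotype called 7 on soft gels. The largest called change was that of Srebf2 on stiff gels, 1.39-fold. The 11 calls on soft gels became 5 without Soft 0 h replicate 2 and 6 without Soft 12 h replicate 1, and the 13 on stiff gels became 8 without Stiff 12 h replicate 1. The 2 h and 12 h responses of a gel share their 0 h libraries.

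**Figure D2:**
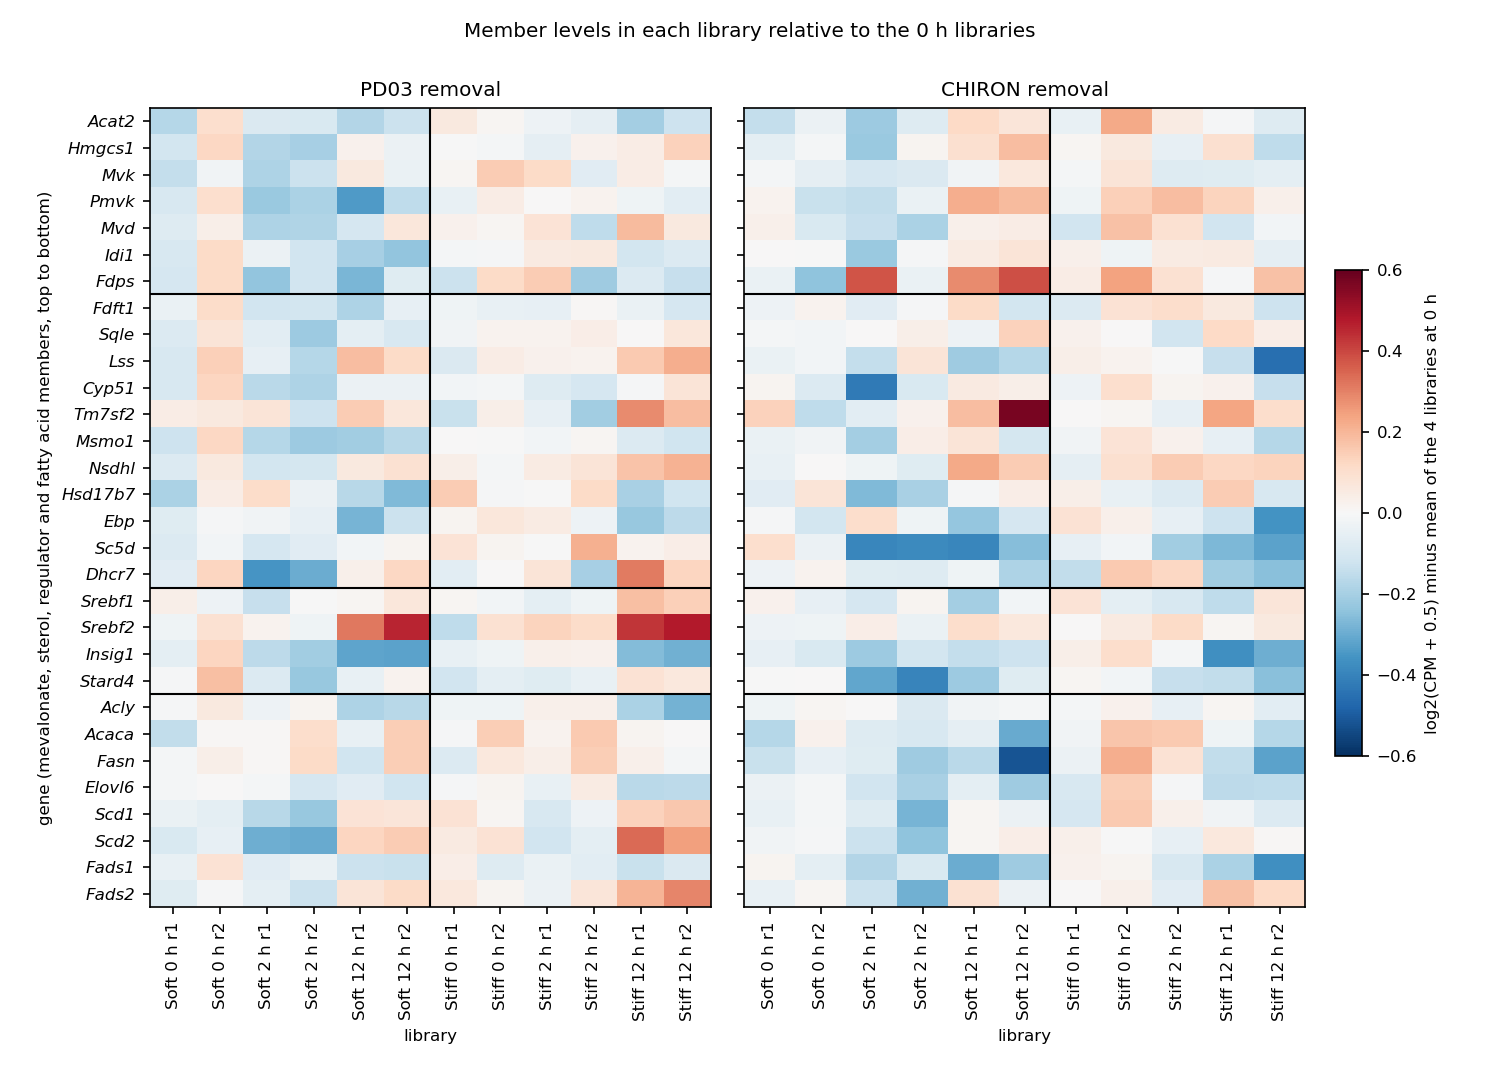
Level of each member (rows, in blocks by role) in each library (columns), as log2(CPM + 0.5) minus the mean of the 4 libraries at 0 h of the same experiment, for PD03 removal and CHIRON removal. Srebf2 is high and Insig1 low in the 4 libraries at 12 h without PD03, and in Soft 0 h replicate 2 of PD03 removal 28 of 30 members are above replicate 1.

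Among the regulators, Srebf2 had the largest rise of the list. On soft gels it stood at 180.5 and 195.9 CPM at 0 h and at 229.0 and 253.2 CPM at 12 h without PD03, a log2 fold change of 0.36 ± 0.061 (SE; adjusted p = 4.8e-05). On stiff gels it went from 165.3 and 196.3 to 248.3 and 256.5 CPM (0.48 ± 0.061, adjusted p = 4.2e-07). On either gel both libraries at 12 h lay above both at 0 h, and both calls held in 4 of 4 fits that each left out 1 library. Insig1 moved the other way. Its soft libraries held 227.8 and 259.1 CPM at 0 h and 190.5 and 189.7 CPM at 12 h (-0.36 ± 0.052, adjusted p = 4.6e-06), and its stiff libraries 230.3 and 233.2 and then 198.3 and 194.0 CPM (-0.24 ± 0.052, adjusted p = 0.00051). The groups of Insig1 did not overlap on either gel, and both its calls also held in 4 of 4 such fits. Srebf1 was called on stiff gels, from 109.7 and 107.6 to 123.4 and 120.4 CPM (0.17 ± 0.055, adjusted p = 0.016), a call lost without Stiff 0 h replicate 2 (adjusted p = 0.11) or Stiff 12 h replicate 1 (0.12). On soft gels Srebf1 stood at 111.7 and 106.5 and then 109.9 and 114.2 CPM, and the groups overlapped. Stard4, the sterol carrier, was not called, at -0.10 ± 0.079 on soft and 0.16 ± 0.081 on stiff gels.

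Of the 7 genes up to farnesyl diphosphate, 2 fell on soft gels, 1 fell on stiff gels and none rose. Of all tested genes 15.3% fell on soft and 19.9% on stiff gels, and 14.1% and 18.5% rose. Pmvk, phosphomevalonate kinase, went from 33.2 and 38.1 to 28.0 and 31.9 CPM on soft gels (-0.25 ± 0.086, adjusted p = 0.031). Idi1, the isomerase that makes dimethylallyl diphosphate, went from 107.2 and 124.3 to 99.9 and 97.2 CPM (-0.23 ± 0.059, adjusted p = 0.0038). Some exon bases of Idi1 and of Hmgcs1 lie opposite those of Gm48574 and Gm48342, and the strand setting of the counting is not given in the sources used here. The soft 0 h replicates of both genes lay apart, with replicate 2 higher: without it the adjusted p was 0.36 for Pmvk and 0.21 for Idi1, and without Soft 12 h replicate 1 it was 0.32 for Pmvk. On stiff gels Acat2, the thiolase that opens the pathway, fell from 171.8 and 166.1 to 143.3 and 151.3 CPM (-0.20 ± 0.061, adjusted p = 0.011), a call lost without Stiff 0 h replicate 1 (adjusted p = 0.08) or Stiff 12 h replicate 1 (0.13). Hmgcs1, Mvk, Mvd and Fdps were not called on either gel and lay between -0.18 and 0.11 on the log2 scale.

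Of the 11 genes from squalene to cholesterol, 3 fell and none rose on soft gels, while 4 rose and 1 fell on stiff gels. Those called on a single gel had the same sign on the other gel. For example, the mean of Lss on soft gels was 116.7 CPM at 0 h and 127.2 CPM at 12 h. The mean of Msmo1 on stiff gels was 210.3 CPM at 0 h and 196.4 CPM at 12 h. The shares of all tested genes were 15.3% falling and 14.1% rising on soft gels, and 19.9% and 18.5% on stiff gels. Ebp, a sterol isomerase, fell on both, from 96.1 and 100.6 to 83.3 and 92.5 CPM on soft (-0.16 ± 0.059, adjusted p = 0.039) and from 102.3 and 105.9 to 86.3 and 90.7 CPM on stiff gels (-0.24 ± 0.059, adjusted p = 0.0022). The stiff call of Ebp held in 4 of 4 fits with 1 library left out. The soft call held in 1 of 4, with an adjusted p of 0.059, 0.25 and 0.43 without Soft 0 h replicate 1, Soft 0 h replicate 2 and Soft 12 h replicate 1. Fdft1, squalene synthase, went from 118.5 and 131.3 to 107.0 and 117.6 CPM on soft gels (-0.15 ± 0.057, adjusted p = 0.044); 18.3% of its exon bases lie opposite those of Ctsb. Msmo1, a sterol methyl oxidase, went from 193.4 and 229.5 to 181.9 and 187.6 CPM (-0.19 ± 0.057, adjusted p = 0.01). The calls of Fdft1 and Msmo1 were lost without Soft 0 h replicate 2 (adjusted p = 0.49 and 0.51) or Soft 12 h replicate 1 (0.43 and 0.093).

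The 4 sterol genes that rose on stiff gels did so by 1.13-fold to 1.23-fold. Lss, lanosterol synthase, went from 107.8 and 118.2 to 127.7 and 133.2 CPM (0.20 ± 0.064, adjusted p = 0.013), and Nsdhl, a sterol dehydrogenase, from 72.3 and 69.9 to 79.6 and 81.6 CPM (0.18 ± 0.061, adjusted p = 0.019). Tm7sf2 went from 14.0 and 15.8 to 18.9 and 17.6 CPM (0.29 ± 0.12, adjusted p = 0.042), and some of its exon bases are shared with Vps51 on the same strand, so the assignment of its reads is uncertain. Dhcr7 went from 24.0 and 25.1 to 31.3 and 27.5 CPM (0.26 ± 0.10, adjusted p = 0.042). For all 4 genes both stiff libraries at 12 h lay above both at 0 h, but each call was lost in some fits with 1 library left out. Lss was lost without Stiff 0 h replicate 1 (adjusted p = 0.16) or Stiff 12 h replicate 2 (0.11). Nsdhl was lost without Stiff 0 h replicate 2 (0.14), Stiff 12 h replicate 1 (0.056) or replicate 2 (0.11). Tm7sf2 was lost without Stiff 0 h replicate 1 (0.24) or either library at 12 h (0.24 and 0.069), and Dhcr7 without either library at 0 h (0.16 and 0.089) or Stiff 12 h replicate 1 (0.38). Sqle, Cyp51, Hsd17b7 and Sc5d were not called on either gel and lay between -0.23 and 0.05 on the log2 scale.

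Of the 8 fatty acid genes, 2 rose and 2 fell on soft gels, and 2 rose and 2 fell on stiff gels. Among all tested genes 14.1% rose and 15.3% fell on soft gels, and 18.5% rose and 19.9% fell on stiff gels. Acly fell from 1084.8 and 1134.1 to 957.2 and 970.5 CPM on soft gels (-0.20 ± 0.040, adjusted p = 0.00025) and from 1071.4 and 1068.7 to 955.6 and 895.5 CPM on stiff gels (-0.21 ± 0.040, adjusted p = 0.00012). Scd2 rose from 1167.8 and 1204.0 to 1359.5 and 1382.5 CPM on soft gels (0.21 ± 0.039, adjusted p = 0.00014) and from 1290.8 and 1322.3 to 1574.2 and 1476.2 CPM on stiff gels (0.22 ± 0.039, adjusted p = 3.9e-05). For Acly and Scd2 the groups did not overlap on either gel, and each call held in 4 of 4 fits with 1 library left out. Scd1, a close paralogue of Scd2 with which reads could be shared, rose on soft gels from 346.6 and 342.8 to 377.9 and 374.3 CPM (0.13 ± 0.044, adjusted p = 0.033), a call that held in 0 of 4 such fits (adjusted p from 0.083 to 0.13).

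Elovl6, which lengthens fatty acid chains, fell on stiff gels from 462.8 and 471.4 to 416.3 and 417.8 CPM (-0.16 ± 0.044, adjusted p = 0.0044), and the call held in 4 of 4 fits with 1 library left out. Of the polyunsaturated fatty acid desaturases, Fads1 fell on soft gels from 134.0 and 146.8 to 126.3 and 126.2 CPM (-0.15 ± 0.054, adjusted p = 0.033). Fads2 rose on stiff gels from 59.9 and 57.8 to 65.9 and 70.3 CPM (0.21 ± 0.066, adjusted p = 0.012). The Fads1 call was lost without Soft 0 h replicate 2 (adjusted p = 0.41) or either library at 12 h (0.12 each), and the Fads2 call without Stiff 0 h replicate 2 (0.1) or Stiff 12 h replicate 2 (0.13). Acaca and Fasn, the carboxylase and the synthase of fatty acid synthesis, were not called on either gel and lay between -0.07 and 0.13 on the log2 scale.

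**Figure D3:**
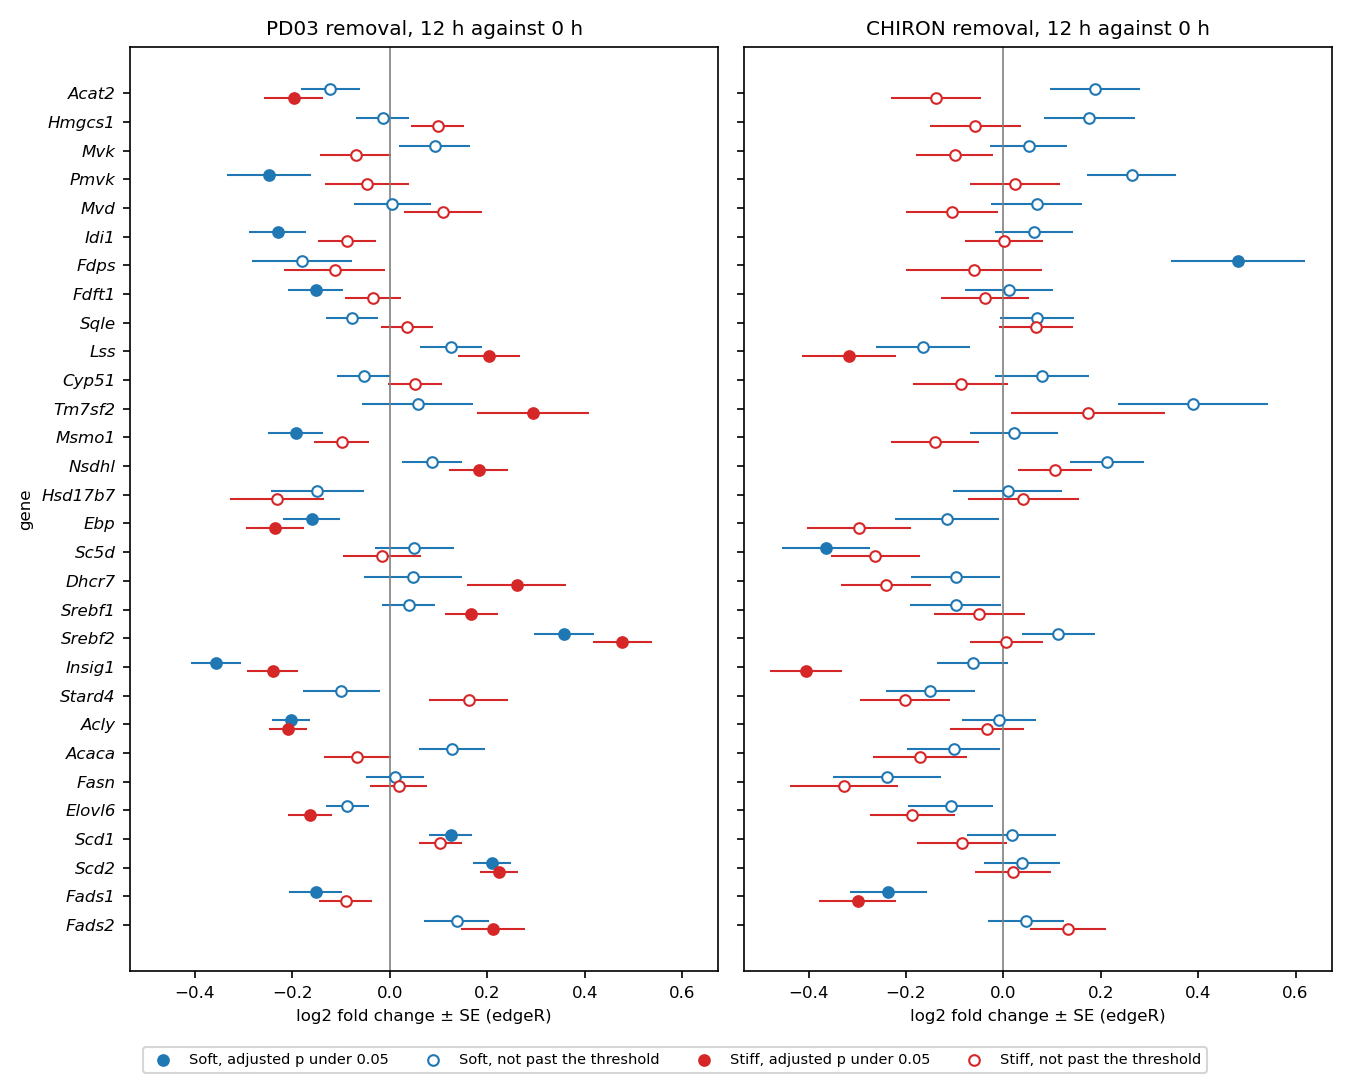
log2 fold change of each member at 12 h against 0 h, with its standard error, on soft (blue) and stiff (red) gels after PD03 removal and CHIRON removal. Filled points have an adjusted p under 0.05; after PD03 removal Srebf2 is farthest to the right on both gels, at 0.36 and 0.48, and among the filled points after CHIRON removal the farthest are Fdps on soft (0.48) and Insig1 on stiff gels (-0.40).

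At 2 h after PD03 removal Scd2 fell on both gels, Insig1 fell on soft gels and no other member was called. On soft gels no member rose, where 1.31% of tested genes rose, and 2 fell, where 0.649% fell. On stiff gels no member rose, against 1.84%, and 1 fell, against 0.895%. DESeq2 called 2 members on soft and 1 on stiff gels, and 11 and 3 had an unadjusted p under 0.05 in edgeR. Scd2 went from 1167.8 and 1204.0 to 1015.1 and 1008.2 CPM on soft gels (-0.23 ± 0.039, adjusted p = 0.00048) and from 1290.8 and 1322.3 to 1149.3 and 1195.8 CPM on stiff gels (-0.16 ± 0.039, adjusted p = 0.02). It was thus below its 0 h level at 2 h and above it at 12 h, with no overlap between the times on either gel. The soft fall held in 4 of 4 fits with 1 library left out. The stiff fall held in 1 of 4, and no member was called on stiff gels without Stiff 0 h replicate 1 (adjusted p of Scd2 0.07), Stiff 0 h replicate 2 (0.19) or Stiff 2 h replicate 1 (0.19).

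Insig1 on soft gels held 227.8 and 259.1 CPM at 0 h and 212.5 and 205.0 CPM at 2 h (-0.22 ± 0.052, adjusted p = 0.016), while on stiff gels it stood at 230.3 and 233.2 and then at 242.0 and 241.2 CPM (0.06 ± 0.051, adjusted p = 0.68). The soft call was lost without Soft 0 h replicate 2 (adjusted p = 0.46), Soft 2 h replicate 1 (0.064) or Soft 2 h replicate 2 (0.21). Without regard to the threshold, 26 of 30 members had a lower mean at 2 h than at 0 h on soft gels (86.7%, against 50.6% of all tested genes), with a median of -0.093. On stiff gels 17 of 30 had (56.7%, against 50.8% of all tested genes). The stiff median was -0.005 and lay between -0.008 and 0.035 with 1 library left out at a time. Hmgcs1 (-0.20 ± 0.055, adjusted p = 0.055) and Msmo1 (-0.20 ± 0.057, adjusted p = 0.065) were nearest to the threshold on soft gels among those not called.

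The soft 0 h libraries touch these values, because the members differed between them together. In Soft 0 h replicate 2, 28 of 30 members were higher than in replicate 1, by a median of 0.145 on the log2 scale, where 50.1% of all genes were higher. In the other 5 groups of the PD03 experiment the median difference between replicates lay between -0.016 and 0.034. Without Soft 0 h replicate 1 the median change of the members at 2 h on soft gels was -0.18 and 5 were called. Without replicate 2 it was -0.047 and 1 was called, as was 1 without either Soft 2 h library. At 12 h on soft gels the median was -0.108 without Soft 0 h replicate 1 and 0.03 without replicate 2, so its sign depended on these libraries.

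The substrate comparison asked whether gel stiffness changed these genes. In 2i+LIF no member was called between soft and stiff gels of the PD03 experiment by edgeR or DESeq2 (5 at an unadjusted p under 0.05), where 0.0298% of all genes were called, and the median difference was 0.007. That median rested on unlike libraries: it was 0.081 without Soft 0 h replicate 1, -0.09 without Soft 0 h replicate 2, with 26 of 30 members then lower on soft gels, and -0.024 without Stiff 0 h replicate 1. The members with the smallest p were Scd2 (-0.14 ± 0.039, adjusted p = 0.34), Mvk (-0.17 ± 0.071, adjusted p = 0.64) and Stard4 (0.17 ± 0.078, adjusted p = 0.66). Scd2 held 1167.8 and 1204.0 CPM on soft and 1290.8 and 1322.3 CPM on stiff gels, without overlap.

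At 2 h after PD03 removal 29 of 30 members had a lower mean on soft than on stiff gels (96.7%, against 49.7% of all tested genes), with a median log2 difference of -0.127 beside 0.0009 for all genes. A single member, Scd2, passed the test, where 0.134% of all genes did. It held 1015.1 and 1008.2 CPM on soft and 1149.3 and 1195.8 CPM on stiff gels (-0.21 ± 0.039, adjusted p = 0.014). No member was called without Soft 2 h replicate 1 (adjusted p of Scd2 0.21), Soft 2 h replicate 2 (0.14) or Stiff 2 h replicate 2 (0.15). In 0 of 30 members both soft libraries lay above both stiff ones. In 21 of 30 members both soft libraries lay below both stiff ones, as they did in 18.2% of all genes. Insig1 was one of these, at 212.5 and 205.0 against 242.0 and 241.2 CPM (-0.21 ± 0.052, adjusted p = 0.11), and Msmo1 another, at 186.8 and 180.8 against 208.4 and 212.3 CPM (-0.19 ± 0.057, adjusted p = 0.27). With 1 library left out at a time, between 26 and 28 of 30 members were lower on soft gels and the median lay between -0.153 and -0.096. The members are not separate observations, because they can move together between libraries of 1 group. In the soft 0 h group 28 of 30 were higher in replicate 2, by a median of 0.145.

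At 12 h after PD03 removal no member was called between gels by edgeR or DESeq2 (5 at an unadjusted p under 0.05), where 0.776% of all genes were called. Scd2 was called in edgeR with a replicate block (adjusted p = 0.043), without the low-count filter and with only the groups compared in the fit. The median was -0.068 and 25 of 30 members were lower on soft gels (83.3%, against 50.7% of all tested genes). With 1 library left out at a time, between 21 and 27 of 30 were lower and the median lay between -0.096 and -0.062. In 16 members both soft libraries lay below both stiff ones, as in 20.5% of all genes, and at 0 h this held for 6 members and 18.5% of all genes. Both soft libraries lay above both stiff ones in 2 members at 12 h and in 3 at 0 h. The smallest p at 12 h was again that of Scd2 (-0.15 ± 0.039, adjusted p = 0.057), at 1359.5 and 1382.5 against 1574.2 and 1476.2 CPM, so its soft libraries lay below its stiff ones at all 3 times. Fads2 (-0.15 ± 0.067, adjusted p = 0.43) and Pmvk (-0.20 ± 0.090, adjusted p = 0.44) came next.

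The response to PD03 removal was not shown to differ between gels for any member. For the 2 h response, soft minus stiff, no member was called by edgeR or DESeq2 (7 at an unadjusted p under 0.05), where 0.00746% of all genes were called. The smallest p were those of Insig1 (-0.28 ± 0.073, adjusted p = 0.99), Msmo1 (-0.20 ± 0.080, adjusted p = 0.99) and Hmgcs1 (-0.19 ± 0.077, adjusted p = 0.99). At 12 h no member was called by either tool (1 at an unadjusted p under 0.05), where 0% of all genes were called. Stard4 (-0.26 ± 0.11, adjusted p = 0.69), Acaca (0.19 ± 0.097, adjusted p = 0.76) and Idi1 (-0.14 ± 0.084, adjusted p = 0.8) had the smallest p. A member called at 12 h on a single gel is therefore not shown to respond differently on the other.

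**Figure D4:**
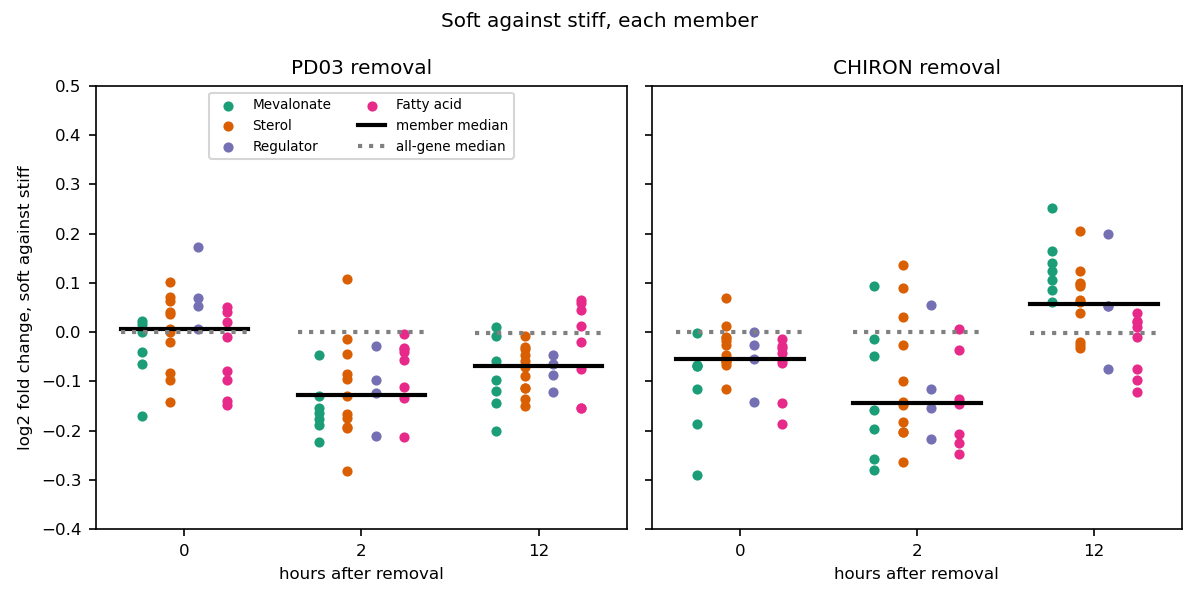
log2 fold change, soft against stiff, of each of the 30 members (points, coloured by role) at 0, 2 and 12 h after PD03 removal and CHIRON removal. Black bars give the median of the members and dotted bars that of all tested genes; the member median is -0.127 at 2 h and -0.068 at 12 h after PD03 removal, and -0.144 at 2 h, where the stiff group is a single library, and 0.057 at 12 h after CHIRON removal.

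After 12 h without CHIRON fewer members were called: Fads1 fell on both gels, Insig1 and Lss fell on stiff gels, and on soft gels Sc5d fell and Fdps rose. On soft gels 1 member rose, where 9.18% of 14615 tested genes rose, and 2 fell, where 8.63% fell. On stiff gels none rose, against 8.46%, and 3 fell, against 8.33%. The member medians were 0.019 on soft and -0.086 on stiff gels, beside -0.0141 and -0.0085 for all genes. The soft median was -0.005 without Soft 12 h replicate 1 and 0.035 and 0.03 without Soft 0 h replicates 1 and 2, so its sign depended on 1 library. The stiff median was -0.154 without Stiff 0 h replicate 1 and -0.012 without Stiff 0 h replicate 2. DESeq2 called 2 members on soft and 4 on stiff gels, and 7 and 9 had an unadjusted p under 0.05 in edgeR. The biological coefficient of variation was 0.0797 here and 0.0386 in the PD03 experiment, so a change of the same size was less readily called here. The groups here were not alike in spread. The chi-square per degree of freedom between replicate counts was 65.267 for Soft 12 h, 25.715 for Stiff 0 h and 6.35 for Soft 0 h. It was 2.786 to 4.928 in the PD03 experiment. The Soft 12 h libraries held 31111260 counts (85.31% protein-coding) and 19393787 counts (78.02%). The number called was 1 on soft gels without Soft 0 h replicate 2 or Soft 12 h replicate 2, and 1 on stiff gels without Stiff 0 h replicate 2 or Stiff 12 h replicate 2. With the left-out library returned to the fit, it was 0 on both gels.

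On stiff gels Insig1 went from 181.3 and 190.7 CPM at 0 h to 136.9 and 144.2 CPM at 12 h without CHIRON (-0.40 ± 0.074, adjusted p = 0.00076), and the call held in 4 of 4 fits with 1 library left out. On soft gels Insig1 stood at 171.1 and 166.1 and then at 160.3 and 162.5 CPM (-0.06 ± 0.073, adjusted p = 0.62). Lss went on stiff gels from 123.6 and 122.3 to 109.5 and 87.8 CPM (-0.32 ± 0.097, adjusted p = 0.03). The replicates of Lss at 12 h lay apart, and the adjusted p was 0.38 without Stiff 12 h replicate 2 and 0.09 and 0.086 without Stiff 0 h replicates 1 and 2.

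Fads1 went from 152.5 and 144.5 to 122.4 and 129.9 CPM on soft (-0.24 ± 0.079, adjusted p = 0.047) and from 153.5 and 152.1 to 131.9 and 116.5 CPM on stiff gels (-0.30 ± 0.079, adjusted p = 0.014). Its 12 h libraries lay below its 0 h libraries on either gel. Even so, the soft call held in 0 of 4 fits with 1 library left out (adjusted p from 0.072 to 0.35), and the stiff call was lost without Stiff 0 h replicate 1 (0.055), Stiff 0 h replicate 2 (0.056) or Stiff 12 h replicate 2 (0.19).

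Sc5d, a sterol desaturase, fell on soft gels from 51.9 and 47.2 to 36.7 and 40.4 CPM (-0.36 ± 0.091, adjusted p = 0.0094), a call lost without Soft 0 h replicate 1 (adjusted p = 0.18) or Soft 12 h replicate 1 (0.11). Its stiff libraries stood at 46.6 and 47.7 and then at 40.0 and 38.6 CPM (-0.26 ± 0.092, adjusted p = 0.059). Fdps, farnesyl diphosphate synthase, was the single member that rose, from 19.4 and 16.8 to 24.4 and 26.3 CPM on soft gels (0.48 ± 0.14, adjusted p = 0.022), and that call was lost without Soft 0 h replicate 2 (adjusted p = 0.2) or Soft 12 h replicate 2 (0.1). The exons of Fdps share 26.7% of their bases with Gm43738 on the same strand, so the assignment of its reads is uncertain. Srebf2, which rose after PD03 removal, stood after CHIRON removal at 618.9 and 619.8 and then 680.0 and 659.4 CPM on soft (0.11 ± 0.075, adjusted p = 0.34) and at 632.1 and 654.3 and then 635.3 and 656.5 CPM on stiff gels (0.01 ± 0.075, adjusted p = 0.97).

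**Figure D5:**
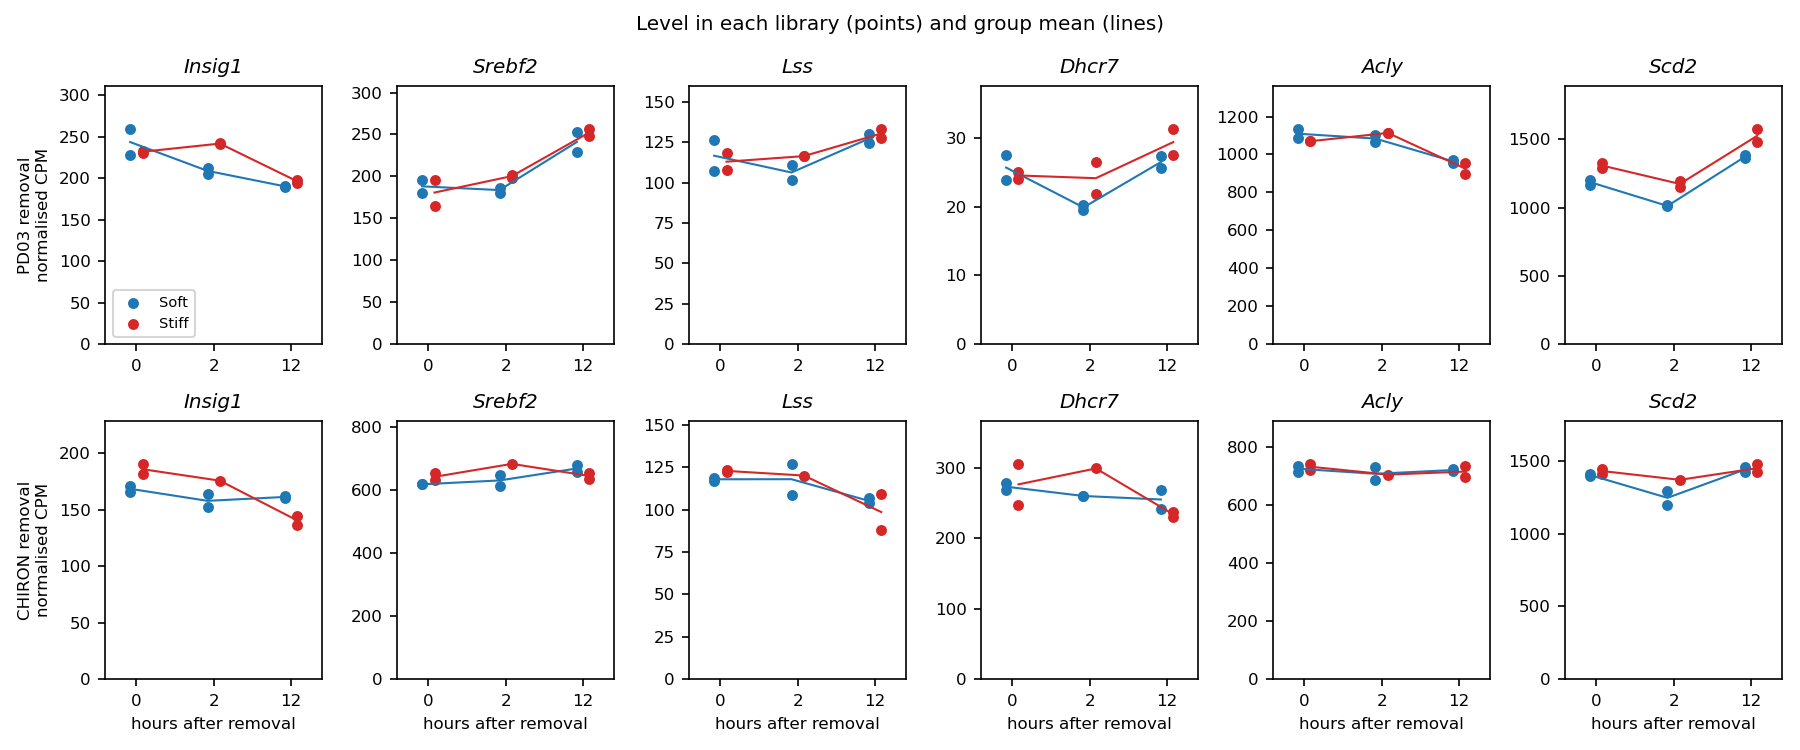
Normalised CPM of Insig1, Srebf2, Lss, Dhcr7, Acly and Scd2 in each library (points) with group means (lines) at 0, 2 and 12 h on soft (blue) and stiff (red) gels after PD03 removal and CHIRON removal, with axes from 0. After PD03 removal Scd2 is lowest at 2 h (1015.1 and 1008.2 CPM on soft and 1149.3 and 1195.8 CPM on stiff gels) and highest at 12 h (1359.5 and 1382.5 and 1574.2 and 1476.2 CPM).

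At 2 h after CHIRON removal no member was called by edgeR on either gel. On soft gels 0.157% of all tested genes rose and 0.0684% fell, and on stiff gels 0.0547% rose and 0.0479% fell. An unadjusted p under 0.05 was found for 6 members on soft and 0 on stiff gels, and DESeq2 called 1 and 0. The DESeq2 call was Sc5d, which went from 51.9 and 47.2 to 36.7 and 36.9 CPM and had an adjusted p of 0.072 in edgeR. The median member change was -0.059 on soft and -0.05 on stiff gels, with 25 and 22 of 30 members lower than at 0 h, beside 50.1% and 49.7% of all tested genes. The stiff median was -0.081 without Stiff 0 h replicate 1, -0.011 without Stiff 0 h replicate 2, with 15 of 30 then lower, and -0.572 with the left-out library returned. The soft median was -0.04 without Soft 2 h replicate 1 and -0.091 without Soft 2 h replicate 2.

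Between gels no member was called in the CHIRON experiment, where 0% of all genes were called at 0 h, 0% at 2 h and 0% at 12 h by edgeR. The numbers of members at an unadjusted p under 0.05 were 0, 5 and 1, and DESeq2 called none. The median difference, soft against stiff, was -0.055 at 0 h, -0.144 at 2 h and 0.057 at 12 h. In that order 27, 24 and 8 of 30 members were lower on soft gels, beside 50.1%, 49.7% and 50.4% of all tested genes. Every soft library lay below every stiff library for 10 members at 0 h (14.9% of all genes) and for 1 at 12 h (15.2%). At 2 h, where the stiff group is a single library, this held for 20 members (34.3%). Every soft library lay above every stiff library for 0 members at 0 h, 2 at 2 h and 11 at 12 h. The share of all genes in that direction was not computed. With the left-out library returned, the median at 2 h was 0.449. The smallest p were those of Fdps (-0.29 ± 0.14), Acat2 (-0.19 ± 0.093) and Insig1 (-0.14 ± 0.073) at 0 h. At 2 h they were those of Pmvk (-0.28 ± 0.11), Mvd (-0.26 ± 0.11) and Cyp51 (-0.26 ± 0.12), and at 12 h those of Insig1 (0.20 ± 0.074), Fdps (0.25 ± 0.14) and Hmgcs1 (0.16 ± 0.093). The 12 h median was 0.109 without Stiff 12 h replicate 1 and 0.015 without Stiff 12 h replicate 2, and the 0 h median was -0.093 without Stiff 0 h replicate 1 and -0.034 without Stiff 0 h replicate 2.

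The responses to CHIRON removal were likewise not shown to differ between gels. No member was called by edgeR or DESeq2 for soft minus stiff at 2 h (0 at an unadjusted p under 0.05), where 0% of all genes were called, or at 12 h (3), where 0% were. At 12 h the smallest p were those of Insig1 (0.34 ± 0.10, adjusted p = 1.0), Fdps (0.54 ± 0.20, adjusted p = 1.0) and Acat2 (0.33 ± 0.13, adjusted p = 1.0). At 2 h they were those of Sc5d (-0.25 ± 0.14), Fdps (0.38 ± 0.22) and Stard4 (-0.22 ± 0.15). Without regard to the threshold, 26 of 30 members had a 12 h response above 0, soft minus stiff. The 4 below 0 were 13.3% of the members, against 49.9% of all tested genes. The member median was 0.105 and lay between 0.062 and 0.17 with 1 library left out at a time.

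The 12 h responses to the removals differed for some members in a model of all 23 libraries, in which each response is taken within its own experiment. On stiff gels the response to PD03 removal was above that to CHIRON removal for 4 members, where 12.4% of 14759 genes were above, and below it for none, where 11.1% were. These were Lss (0.52 ± 0.12, adjusted p = 0.0027), Dhcr7 (0.50 ± 0.14, adjusted p = 0.0088), Srebf2 (0.48 ± 0.099, adjusted p = 0.00069) and Stard4 (0.37 ± 0.12, adjusted p = 0.025). Dhcr7 and Srebf2 were also the members whose 0 h levels lay farthest apart between the experiments, 12.7-fold and 4.04-fold. The part of that difference in their calls was not tested. Lss and Srebf2 held in 8 of 8 fits with 1 library left out. Dhcr7 was lost without PD03 removal Stiff 12 h replicate 1 (adjusted p = 0.095) or CHIRON removal Stiff 0 h replicate 2 (0.058). Stard4 was lost without PD03 removal Stiff 0 h replicate 1 (0.087), Stiff 12 h replicate 1 (0.083) or Stiff 12 h replicate 2 (0.055), or CHIRON removal Stiff 12 h replicate 2 (0.08). The count was 2 without PD03 removal Stiff 12 h replicate 1 and 7 without CHIRON removal Stiff 0 h replicate 1.

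On soft gels 1 member had a higher response to PD03 than to CHIRON removal, where 10.5% of genes had, and 4 a lower one, where 10.5% had. Sc5d was the higher (0.41 ± 0.12, adjusted p = 0.011). The lower were Pmvk (-0.52 ± 0.12, adjusted p = 0.0034), Fdps (-0.67 ± 0.19, adjusted p = 0.012), Insig1 (-0.30 ± 0.090, adjusted p = 0.018) and Idi1 (-0.30 ± 0.10, adjusted p = 0.036). All of these calls draw on the Soft 12 h libraries of CHIRON removal, the replicates farthest apart (chi-square per degree of freedom 65.267). Pmvk held in 8 of 8 fits with 1 library left out. Fdps was lost without PD03 removal Soft 0 h replicate 2 (adjusted p = 0.079), PD03 removal Soft 12 h replicate 1 (0.072) or CHIRON removal Soft 0 h replicate 2 (0.08). Sc5d was lost without PD03 removal Soft 0 h replicate 1 (0.057), CHIRON removal Soft 0 h replicate 1 (0.051) or CHIRON removal Soft 12 h replicate 1 (0.053). Insig1 was lost without PD03 removal Soft 0 h replicate 2 (0.16), either PD03 removal library at 12 h (0.054 and 0.053) or CHIRON removal Soft 0 h replicate 2 (0.072). Idi1 held in 1 of 8 fits, the one without PD03 removal Soft 0 h replicate 1, and had an adjusted p of up to 0.27 in the others. The count was 2 without PD03 removal Soft 12 h replicate 1 or CHIRON removal Soft 0 h replicate 2, and 3 without PD03 removal Soft 0 h replicate 2, PD03 removal Soft 12 h replicate 2 or CHIRON removal Soft 0 h replicate 1. At 2 h on soft gels no member differed between the removals by edgeR or DESeq2 (3 at an unadjusted p under 0.05), where 0.813% of genes did. Sc5d (0.39 ± 0.12, adjusted p = 0.14), Fdps (-0.52 ± 0.19, adjusted p = 0.29) and Hsd17b7 (0.35 ± 0.15, adjusted p = 0.39) had the smallest p.

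Other genes of these pathways were followed by lists, and values are log2 fold changes at 12 h on soft and stiff gels in that order. The counts stand beside 14.1% and 18.5% of all tested genes that rose and 15.3% and 19.9% that fell after PD03 removal, and 9.18% and 8.46% that rose and 8.63% and 8.33% that fell after CHIRON removal. Of 4 genes of SREBP processing, Scap, the escort of SREBPs, rose after PD03 removal (0.17 ± 0.059 and 0.19 ± 0.059), the protease gene Mbtps2 fell on soft gels (-0.28 ± 0.095), and none was called after CHIRON removal. Among 9 other sterol and isoprenoid enzymes, Fnta, a protein prenyltransferase subunit, fell after PD03 removal (-0.23 ± 0.050 and -0.28 ± 0.051). After CHIRON removal 3 of the 9 fell on soft and 2 on stiff gels, among them Pdss1, which makes the ubiquinone side chain (-0.85 ± 0.11 and -1.07 ± 0.11).

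Of 8 genes of LXR signalling, sterol efflux and storage, 7 were tested after PD03 removal. There 1 rose and 1 fell on soft gels, and 1 rose and 4 fell on stiff gels. After CHIRON removal 2 rose and 1 fell on soft gels, and 1 rose and 1 fell on stiff gels. Npc2, which carries cholesterol out of lysosomes, fell in all 4 responses (-0.48 and -0.61 after PD03 removal, -0.67 and -0.58 after CHIRON removal). Abca1, a cholesterol exporter, fell on stiff gels after PD03 removal (-0.36 ± 0.10) and rose on both after CHIRON removal (0.70 ± 0.14 and 0.69 ± 0.14).

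Of 13 other lipogenic genes, 3 rose and 4 fell on soft and 4 rose and 5 fell on stiff gels after PD03 removal, where 14.1% and 15.3% of all tested genes rose and fell on soft and 18.5% and 19.9% on stiff gels. After CHIRON removal 3 rose and 1 fell on soft and 4 rose and 1 fell on stiff gels. Acss2, which makes acetyl-CoA from acetate, fell after PD03 removal (-0.42 ± 0.095 and -0.37 ± 0.10) and rose after CHIRON removal (0.60 ± 0.11 and 0.74 ± 0.11). Mlxipl, a carbohydrate-responsive activator of lipogenic genes, rose in all 4 responses (0.69 and 0.87, then 0.99 and 1.34). Of 10 genes of fatty acid oxidation, 9 were tested, none rose, 4 fell on soft and 5 on stiff gels after PD03 removal, and 1 fell on each gel after CHIRON removal, against 15.3%, 19.9%, 8.63% and 8.33% of all tested genes in that order. The gene that fell after CHIRON removal was Cpt1a, which lets fatty acids into mitochondria and fell in all 4 responses (-0.16 and -0.34, then -0.68 and -0.54).

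Targets of the removed inhibitors moved at 12 h, though not only in their own experiment. Without PD03, 3 of 4 ERK targets rose on each gel, Spry4 among them (2.34 and 2.39), and 2 of 4 Wnt targets rose. Without CHIRON all 4 Wnt targets fell on each gel, Axin2 among them (-2.65 and -2.58). There 3 of 4 ERK targets also fell on soft and 2 on stiff gels. The summed level of 7 naive mESC markers lay between 6258.4 and 7573.8 CPM per library in the PD03 experiment and between 5294.5 and 5954.4 CPM in the CHIRON experiment. At 12 h, 1 of these 7 rose and 4 fell on each gel after PD03 removal, and 3 rose and 2 fell on soft and 5 rose and 2 fell on stiff gels after CHIRON removal. Markers of other cells were low in every library: 5 primitive endoderm genes summed to between 1.03 and 6.0 CPM, 5 fibroblast genes to between 1.3 and 3.05 CPM and 4 trophoblast genes to between 9.31 and 25.1 CPM, with Ttr and Dcn at no more than 3 counts. Cdx2, of the trophoblast list, rose at 12 h after PD03 removal (0.39 and 0.36) and fell after CHIRON removal (-5.54 and -6.51). Of the 3 trophoblast genes tested after CHIRON removal, 1 rose and 1 fell on each gel. At 12 h after PD03 removal 1 primitive endoderm gene rose on soft gels and 1 fibroblast gene rose on stiff gels. Of 5 stress genes, 2 fell on each gel after either removal and 1 rose on stiff gels after CHIRON removal. The part of these genes in the members' values was not tested. Total counts ran from 16222196 to 26442153 per library in the PD03 experiment and from 19393787 to 31111260 in the CHIRON experiment, and protein-coding genes held 73.07% to 77.46% and 78.02% to 85.31% of them.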

How the data were processed

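The deposited files were 2 tables of raw read counts per gene, 1 for each experiment. Per the labels, RNA was ribosome-depleted before library preparation, and the submitters' processing notes name Trim Galore, TopHat2 2.1.0, featureCounts 1.5.0, DESeq2 and the mm10 build. Strand setting and treatment of multi-mapping reads are not given in the sources used here. In the table for PD03 removal, 15 gene names had been turned into dates, and 12 further columns that match no sample here were set aside.

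Protein-coding genes with enough counts (edgeR's filterByExpr, minimum count 10, minimum total 15) were normalised by TMM and tested with edgeR 4.0.16 (quasi-likelihood test, group means, all 6 groups of an experiment; R 4.3.3), with Benjamini-Hochberg adjustment over all tested genes and a threshold of 0.05. Responses to the 2 removals were compared in a joint fit of 23 libraries. The standard error is the log2 fold change divided by the square root of F. Scripts were tested on simulated data. Promoter windows were from RefSeq (GRCm38.p6). Python 3.11.15, numpy 2.4.6, pandas 2.3.3 and matplotlib 3.10.9 were used for tables and figures.

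Every member called in a 2 h or 12 h response is given with its value in every library of the groups compared in that call. Its values on the other gel are not always given. Where no member passed between gels or between responses, the 3 with the smallest p are given. Other genes are those of the lists past the threshold at 12 h, at most 4 a list. The members and lists were chosen with earlier results of these data known. Some results of the list of other sterol and isoprenoid enzymes are not reported here. Alternatives were DESeq2 1.42.0, edgeR with DESeq2's size factors, genes kept without a count minimum, genes of every biotype, a replicate block, fits of only the groups compared, each library left out in turn, and the return of the shallow library (171333 counts). Total counts were 16222196 to 31111260 per library used.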

Additional observations from a re-analysis of the deposited data

How the results depend on the processing

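Of the counts of members called in 21 comparisons, none changed by more than 1.5 times with DESeq2 size factors. No change of a member called in the reported fit reversed in direction under any alternative run. Directions of members not called did change. Between gels at 2 h after CHIRON removal, 24 of 30 members were lower on soft gels in the reported fit. This became 6 with the shallow library returned. DESeq2 called 7 members at 12 h on soft gels after PD03 removal (11 in edgeR) and 1 at 2 h on soft gels after CHIRON removal (0 in edgeR). With all genes tested, the counts after PD03 removal were 7 at 12 h on soft gels, 0 at 2 h on stiff gels (1 in the reported fit) and 0 between gels at 2 h (1). Without a low-count filter they were 6 at 2 h on soft gels (2), 4 between gels at 2 h and 1 between gels at 12 h (0) after PD03 removal, 1 at 2 h on soft gels and 5 at 12 h on stiff gels (3) after CHIRON removal, and 8 between removals on soft gels (5). With only the groups compared in the fit, they were 6 at 2 h on soft gels, 0 at 2 h on stiff gels, 0 between gels at 2 h and 1 between gels at 12 h after PD03 removal, and 5 at 12 h on soft gels (3) after CHIRON removal. With the shallow library returned, they were 0 at 12 h on soft and 0 on stiff gels after CHIRON removal and 0 between removals on soft and 0 on stiff gels (4). With 1 library left out at a time, the counts after PD03 removal ranged from 1 to 5 at 2 h on soft, 0 to 1 at 2 h on stiff, 5 to 11 at 12 h on soft, 8 to 10 at 12 h on stiff gels and 0 to 1 between gels at 2 h. They ranged from 1 to 3 on soft and 1 to 4 on stiff gels at 12 h after CHIRON removal, and from 2 to 6 on soft and 2 to 7 on stiff gels between removals. The causes of these changes were not tested. Libraries of different groups with the same replicate number did not deviate together (correlations from -0.109 to 0.113), so the numbers were not taken to pair them. With a replicate block, 1 member was called between gels at 12 h after PD03 removal (Scd2, adjusted p = 0.043). Under that block Hmgcs1 was also called at 2 h on soft gels after PD03 removal (0.034), while Fads1 (0.076) and Lss (0.053) after CHIRON removal and Idi1 between removals (0.052) were lost.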
